A study of Homo sapiens with 4 samples.

Results

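The 7 genes of the cyclin-dependent kinase inhibitors were taken by name from 20098 protein-coding genes, each by its annotated span plus 50 kb either side, and read from genome-wide maps of macroH2A1 in IMR90 cells. MacroH2A1 is a variant of the core histone of the H2A family that carries a large macro domain, and IMR90 is a strain of human lung fibroblasts widely used to study senescence. The series held 2 macroH2A1 ChIP samples, described as biological replicates, and 2 input samples of sheared chromatin without antibody. All came from dishes of the same strain grown close to confluence, crosslinked with 1% formaldehyde, with no treatment or second condition. The data are deposited segmentations of the genome, in which each segment has 1 ratio of ChIP to input on the log2 scale, and the inputs enter only there. The values describe placement within each library and not an absolute amount of the histone. As there is no second condition, no test between groups of samples was possible, and the error given is the spread between the 2 ChIP replicates. Enriched segments are those with a positive ratio whose deposited −log10 p reached 2, and the covered share of a gene is the percent of its assayed bases that were enriched in both replicates.

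Cyclin-dependent kinase inhibitors bind the kinases that drive the cell cycle and so hold cells before DNA synthesis. The CIP/KIP group (CDKN1A, CDKN1B and CDKN1C, encoding p21, p27 and p57) binds several cyclin-kinase complexes, and the INK4 group (CDKN2A, CDKN2B, CDKN2C and CDKN2D, encoding p16, p15, p18 and p19) binds CDK4 and CDK6. Their rise, above all that of p21 and p16, marks fibroblasts that become senescent. CDKN2A also encodes p14ARF, which shares downstream exons with p16 but starts from its own first exon and is a different protein.

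Sequences before 4 of the start sites are shown as examples, picked after the map was seen. The CDKN1A and CDKN2B starts lay in segments far below 0 in both replicates. Within CDKN2A the starts of p16 and p14ARF lay in different segments. The start of CDKN2D, the lowest of the 7 at a mean log2 ratio of -2.29, is not shown. Such low starts are common, since 32.1% of all genes had a start below -1.5 in both replicates. Each line gives 150 bases before the start, from GRCh37, in the direction of transcription, with CG pairs in capitals.
CDKN1A (chr6:36646341-36646490, plus strand): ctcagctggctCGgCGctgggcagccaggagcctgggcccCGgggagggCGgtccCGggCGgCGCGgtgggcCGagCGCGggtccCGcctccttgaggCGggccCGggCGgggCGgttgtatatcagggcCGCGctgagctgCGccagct
CDKN2A, p16 (chr9:21974857-21975006, minus strand): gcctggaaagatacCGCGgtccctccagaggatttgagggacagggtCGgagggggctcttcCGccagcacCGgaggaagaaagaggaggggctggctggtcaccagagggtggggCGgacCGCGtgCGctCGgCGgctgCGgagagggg
CDKN2A, p14ARF (chr9:21994392-21994541, minus strand): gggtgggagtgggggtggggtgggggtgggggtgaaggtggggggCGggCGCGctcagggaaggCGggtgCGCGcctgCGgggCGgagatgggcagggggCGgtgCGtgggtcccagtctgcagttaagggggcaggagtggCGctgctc
CDKN2B (chr9:22009305-22009454, minus strand): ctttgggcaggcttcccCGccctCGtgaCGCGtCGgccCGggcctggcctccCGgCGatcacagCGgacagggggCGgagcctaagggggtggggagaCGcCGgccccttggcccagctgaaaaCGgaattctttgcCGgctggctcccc
The stretches held 19 CG pairs before CDKN1A, 12 before the p16 start, 11 before the p14ARF start and 14 before CDKN2B. Over the 500 bases centred on the canonical start, all 7 genes had an observed-to-expected CG ratio of at least 0.6, from 0.65 at CDKN2C to 1.02 at CDKN1C. Of all measured genes 69.2% had a start of that kind. The start of CDKN2C was the one with a low GC content, 48.6%, and the other 6 ran from 65.2% at CDKN1B to 74.6% at CDKN1C, against a median of 64.8% over all measured genes.

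The inhibitor genes did not share one level of macroH2A1. No member had 50% or more of its span in bases enriched in both replicates at once, where 19.2% of the 19517 measured genes were. Of the 6 with a canonical start in blocks of both files, none had it in enriched segments of both, where 19.5% of genes did. The second count takes canonical starts alone. Another coding start of CDKN2A, at 21971331, lay in enriched segments of both replicates, at 1.31 in replicate 1 and 0.48 in replicate 2. The first count turns on CDKN1B and CDKN2A. CDKN1B had 55.8% of its span enriched in replicate 1 and 65.6% in replicate 2, but 45.2% in both at once. For CDKN2A the count depends on the gene model, since its p16 transcript alone was covered to 67.8%. That coverage rests on a segment of 0.48 with a −log10 p of 3.96 in replicate 2, and the covered share of CDKN2A was 0 when a log2 ratio above 0.5 or a −log10 p of at least 5 was asked for. At the start site, 6 of 7 members lay below 0 in both replicates, a share to be read against 67.3% of all genes. Below -1.5 in both replicates lay the starts of CDKN1A, CDKN2B and CDKN2D, 3 of 7, where 32.1% of all genes had such a start. That limit was chosen after the values were seen, as were the widths of depleted runs given for single genes. The median member had a log2 ratio over the gene span of -1.42, against -0.81 for all measured genes. CDKN1C did not pass the filter of 50% assayed bases, with 100% in blocks of replicate 1 but 40.0% in blocks of replicate 2. Its value in each replicate is that of a single segment longer than the gene, 20.1 kb in replicate 1 and 24.6 kb in replicate 2.

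The order over the gene span began with CDKN2D, the INK4 gene of p19, at -2.29 ± 0.24 (SD, n = 2 throughout). CDKN1A followed at -2.07 ± 0.19. CDKN2D was the lower in each replicate, but the ranges of these genes overlapped, so their order is not set. CDKN2B, at -1.65 ± 0.05, lay above CDKN1A in both replicates, with no overlap of ranges. CDKN2C, at -1.42 ± 0.63, overlapped CDKN2B. CDKN2A stood above both in each replicate, at -0.46 ± 0.11, also with no overlap. The highest were CDKN1C at -0.06 ± 0.05 and CDKN1B at 0.21 ± 0.34. CDKN1B was the higher in each replicate, but their ranges overlapped. The INK4 means ran from -2.29 to -0.46, all below 0, and the CIP/KIP means from -2.07 to 0.21. The ranges of the groups over the gene span thus overlapped over most of their length, and only the CIP/KIP group reached 0. This depends on the gene model. Over the canonical transcript CDKN1B was at -1.70 and CDKN2A at 0.62, so there only the INK4 group reached 0. Of all measured genes, 8.17% had a lower span value than CDKN2D and 15.6% a lower one than CDKN1A, so even the lowest members sat within the ordinary range of genes.

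**Figure D1:**
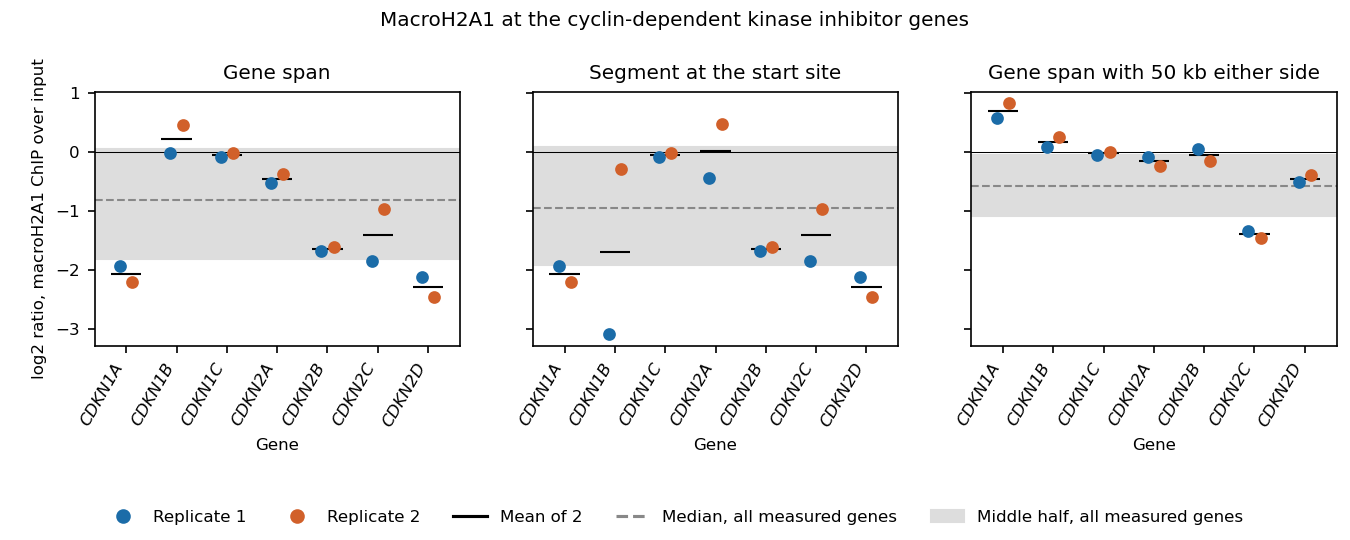
log2 ratio of macroH2A1 ChIP over input (vertical axis) for each inhibitor gene (horizontal axis) over the gene span, in the segment at the canonical start and over the span with 50 kb either side. Points are the 2 replicates, black bars their mean, and the dashed line and grey band the median and interquartile range of all measured genes. CDKN1A moves from among the lowest over its span, -2.07, to the highest over the wider window, 0.70, while CDKN2C is low in both.

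CDKN1A (ENSG00000124762, chr6:36644237-36655114, plus strand) lay in a narrow trough between strongly enriched flanks. Its product p21 binds cyclin complexes of CDK2 and also the replication clamp PCNA. The segment over it had a log2 ratio of -1.94 in replicate 1 and -2.21 in replicate 2, and the segment before it 1.25 and 1.49. Both replicates were thus far below 0 over the gene and far above 0 beside it, and the step of more than 3 log2 units exceeded the difference between replicates. The border before the gene fell at 36643531 in replicate 1 and 36643631 in replicate 2, 100 bases apart and 2.96 and 2.86 kb before the start. After the gene, replicate 1 passed through a segment of -0.17 to one of 0.81, 21.5 kb from the start, and replicate 2 through 0.63, 12.8 kb from the start, to 1.15. The run of segments below 0 was 24.4 and 15.7 kb wide. Only 2.17% of the 13109 genes with a start below 0 in both replicates had a narrower run on average, and their median was 175 kb.

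Set against its own surroundings, CDKN1A had the lowest start of the 7 genes on the mean of both replicates and in replicate 2, and CDKN1B had the lowest in replicate 1. The mean within 2.5 kb of the start minus the mean from 25 to 50 kb on both sides was -2.97 in replicate 1 and -3.53 in replicate 2. Of all measured genes 0.159%, or 31 genes, had a lower mean difference. For CDKN1B the difference was -3.22 in replicate 1 and -0.83 in replicate 2. This measure was chosen after the profiles were seen, so the rank is a description. The wider window of CDKN1A averaged 0.57 and 0.82, higher than in 94.9% of genes, and 79.2% of it was covered. RAB44, a Rab family gene on the far side, had a covered share of 93.4% and a log2 ratio of 0.91 ± 0.24. Of the noncoding RNA genes beside it, named after their values were seen, PANDAR lay before the border at 1.37 ± 0.17 and DINOL inside the trough at -2.07 ± 0.19. The start of CDKN1A itself fell in a gap of replicate 2, inside the segment of -2.21, and 84.6% of the gene was assayed in that replicate.

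**Figure D2:**
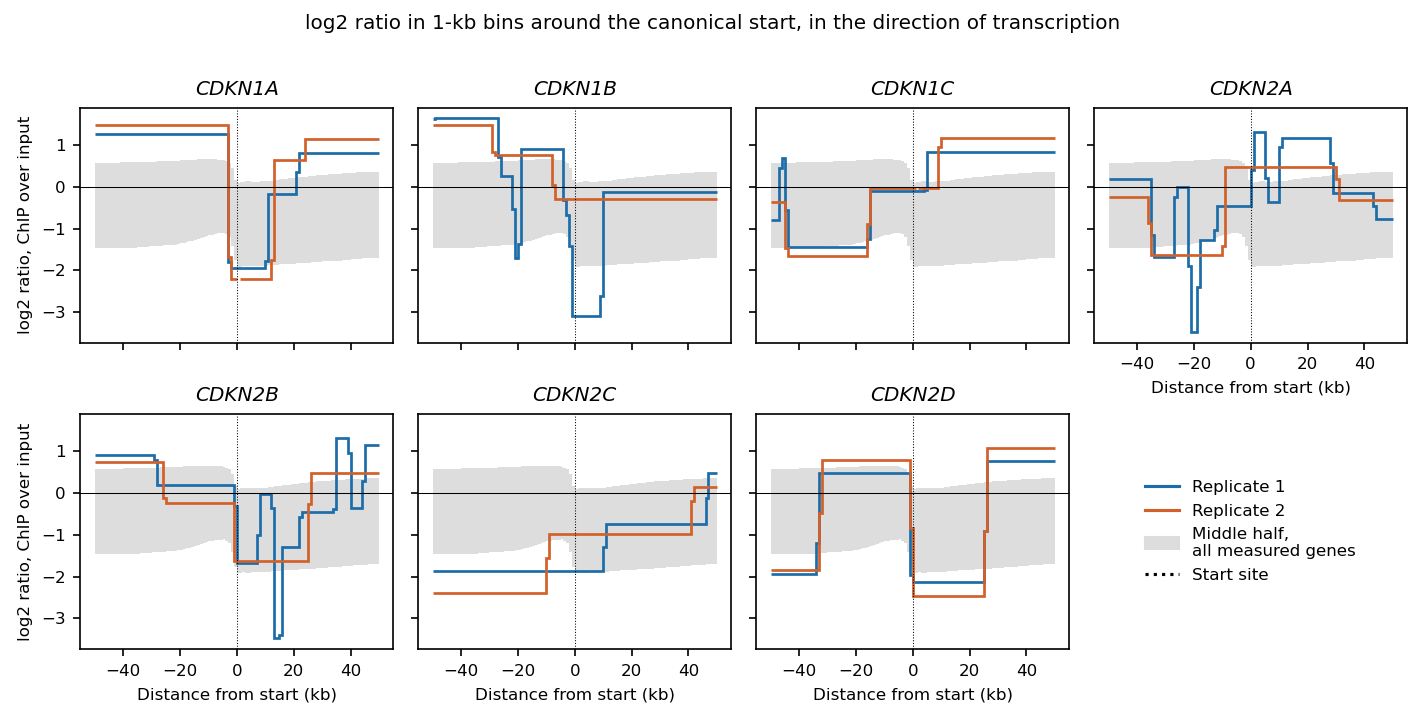
log2 ratio of ChIP over input (vertical axis) in 1-kb bins from 50 kb before to 50 kb after each canonical start (horizontal axis, in the direction of transcription). Lines are the replicates, with a break where no base was assayed, and the grey band is the interquartile range of all measured genes. CDKN1A and CDKN2D sit in troughs with enriched sequence on both sides in both replicates, and CDKN1B falls at the start in replicate 1, to -3.09.

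CDKN1B (ENSG00000111276, chr12:12838432-12875303, plus strand), the p27 gene, had the highest span value, but the enriched part lay before the coding transcripts. Its annotated span of 36.9 kb begins far upstream of the canonical transcript, which covers 5.00 kb, and all of its 4 coding transcripts start at or after 12870302. Over the whole span the log2 ratio was -0.03 in replicate 1 and 0.45 in replicate 2, with 45.2% covered. Over the canonical transcript it was -3.09 and -0.30, with 0 covered. Both values were negative, but they differed by more than over the canonical transcript of any other member, and their mean was -1.70 ± 1.98. Replicate 1 had a segment of 11.1 kb at the start, and replicate 2 had a single segment of 65.5 kb there. Shared enriched sequence ended 7.67 kb before the start, and on the other side began 57.9 kb beyond it. The enriched stretch before the gene covered most of GPR19, an orphan receptor gene, at 1.29 in replicate 1 and 1.32 in replicate 2. CREBL2, on its far side, was at -1.47 ± 0.21. APOLD1, which lies beyond the end of CDKN1B, was at -0.17 ± 0.04 with 21.8% covered.

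CDKN1C (ENSG00000129757, chr11:2904443-2907005, minus strand), the imprinted p57 gene, sat at an intermediate level between a long enriched segment and a depleted one. The gene read -0.10 in replicate 1 and -0.02 in replicate 2. Beyond its end, the enriched segment ran for 175 kb at 0.84 in replicate 1 and for 170 kb at 1.16 in replicate 2, and took in the end of the potassium channel gene KCNQ1. KCNQ1 as a whole was covered to 77.7%, and KCNQ1DN and KCNQ1-AS1 to 100%. Before its start lay a segment of -1.43 in replicate 1 and -1.66 in replicate 2 over SLC22A18, a transporter gene, and PHLDA2, a growth-restraining gene, both imprinted neighbours with 0 covered. The depleted segment began at 2922148 in replicate 1 and at 2922483 in replicate 2. The level at CDKN1C differed from both neighbouring segments by more than the difference between replicates.

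The INK4 locus of chromosome 9 was divided within CDKN2A, between the body of the p16 transcript and the p14ARF start. CDKN2A (ENSG00000147889, chr9:21967751-21995300, minus strand) had a span value of -0.54 in replicate 1 and -0.39 in replicate 2, which averages unlike parts. Its canonical p16 transcript read 0.77 in replicate 1 and 0.48 in replicate 2. The p14ARF start, 19.5 kb upstream of the p16 start, lay in a segment of -3.48 in replicate 1 and one of -1.62 in replicate 2. The mean over the p16 transcript was therefore above 0 and the p14ARF start far below it in both replicates. This sets a transcript body against a start. Since p14ARF shares downstream exons with p16, the enriched stretch does not separate the products. The p16 start itself was not settled, since the border to depleted sequence fell 0.52 kb inside the transcript in replicate 1 and 9.10 kb upstream of its start in replicate 2. The start read -0.45 in replicate 1 and 0.48 in replicate 2.

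CDKN2B (ENSG00000147883, chr9:22002902-22009304, minus strand), the p15 gene next to it, was depleted along its whole length, at -1.68 in replicate 1 and -1.62 in replicate 2. Both replicates placed a border just before its start, 0.27 and 1.00 kb from it. The segment beyond that border read 0.19 in replicate 1 and -0.24 in replicate 2, and was enriched in neither. Shared enriched sequence began 28.2 kb before the start. The antisense RNA gene CDKN2B-AS1, which starts inside the segment of p14ARF and runs away from it for 134 kb, was covered to 67.7% over its length, and its start read -3.48 and -1.62. MTAP, a metabolic gene on the other side, was at -1.29 ± 0.14 with 0 covered. In replicate 1 the windows of CDKN2A and CDKN2B held 12 and 10 segments, and in replicate 2 they held 5 and 4, so the finer steps were seen in replicate 1 alone. The windows overlap and share these segments.

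**Figure D3:**
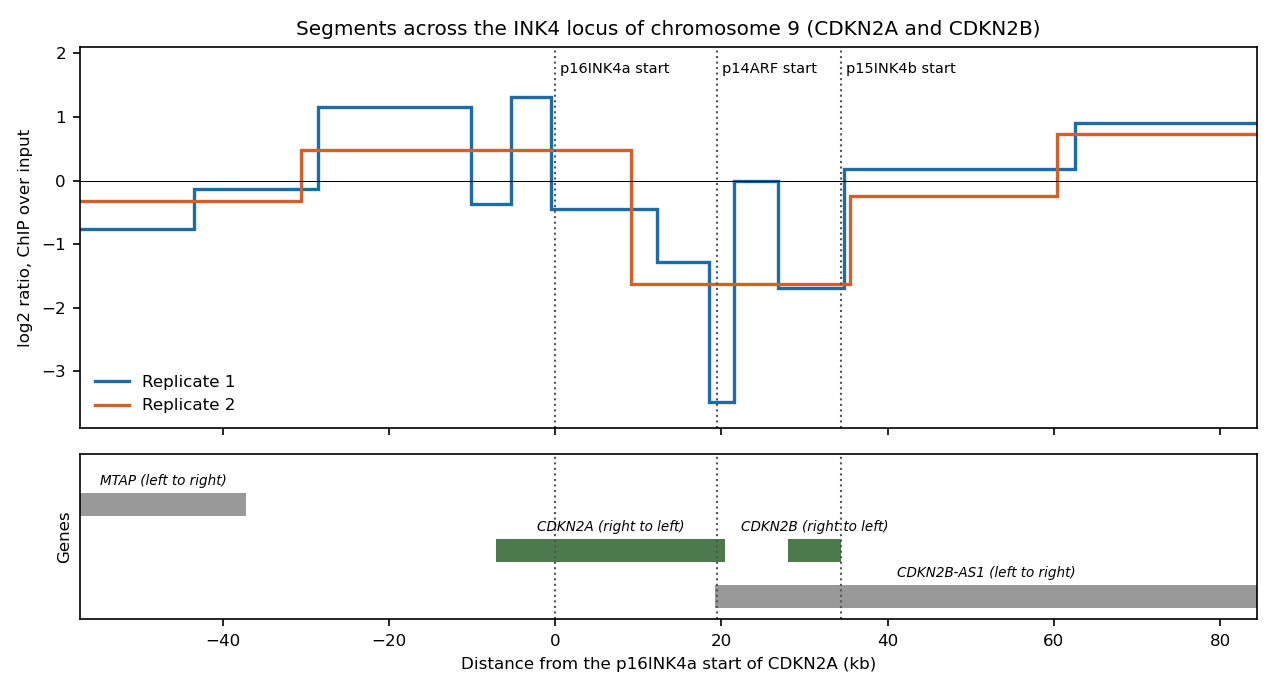
Upper panel, log2 ChIP to input ratio (vertical axis) of the deposited segments of each replicate across the joined windows of CDKN2A and CDKN2B, by distance from the p16 start (horizontal axis, kb). Lower panel, the gene spans with their direction. The lowest segment of replicate 1, -3.48, holds the p14ARF start, and the p16 start lies at a border.

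CDKN2C (ENSG00000123080, chr1:51426417-51440306, plus strand), the p18 gene, lay in a long depleted region and not in a narrow trough. The gene read -1.86 in replicate 1 and -0.97 in replicate 2. The run of segments below 0 was 583 and 578 kb wide, and 82.2% of genes with a start below 0 had a narrower one. The replicates differed by 0.89 at this gene, more than at 94.3% of all measured genes. Replicate 2 placed a border at 51426329, just before the gene, with -2.38 before it, and replicate 1 kept a single segment of -1.86 from before the gene to 51446410. FAF1, on the upstream side, read -1.82 ± 0.24, and no base of the CDKN2C window was enriched in both replicates.

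CDKN2D (ENSG00000129355, chr19:10677136-10679735, minus strand), the p19 gene, shared a trough with its neighbours ATG4D, an autophagy protease gene, and KRI1. The segment read -2.12 in replicate 1 and -2.46 in replicate 2 and was 26.5 and 26.1 kb long. The borders of the replicates were 15 and 446 bases apart. The segment before the start began 0.94 and 0.50 kb from it, at 0.48 and 0.78, and covered AP1M2, an adaptor gene of epithelial cells, to 100%. The one beyond the far end of the trough read 0.77 and 1.07 and covered S1PR5, a lipid receptor gene, to 100%. Both replicates thus had enriched sequence on either side of the trough that holds the p19 gene. SLC44A2, beyond the enriched segment that holds AP1M2, was at -1.89 ± 0.06 with 0 covered.

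Enriched sequence of both replicates within 50 kb on both sides of a start below 0 was found at CDKN1A, CDKN2B and CDKN2D. These are 3 of 7 members, where 7.33% of genes had the pattern. A flank of CDKN2B read 0.48 in replicate 2, with a −log10 p of 3.96, and a flank of CDKN2D read 0.48 in replicate 1. With a log2 ratio above 0.5 CDKN1A alone kept the pattern, and with a −log10 p of at least 5 CDKN2B lost it. The pattern was defined after the profiles were seen, so the count is a description. Within 25 kb it held for CDKN1A alone, where 2.03% of genes had it. On at least one side it was found at 5 of 7 members, against 36.2% of genes. Of 14 other protein-coding genes in the windows, 5 were covered over at least 50%, where 19.2% of all measured genes were. Another 8 were covered to 0, which was also the median covered share of all measured genes. The 5 covered genes were RAB44, GPR19, KCNQ1, S1PR5 and AP1M2.

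All 7 members have starts rich in CG pairs, and their median log2 ratio at the start, -1.65, was close to that of genes of the same kind, -1.51, where other genes had a median of -0.11. Of 12258 such genes 12.4% had the start in enriched segments of both replicates, and of 5966 other genes 34% did. The start fell in a gap of replicate 2 for 6.60% of genes, with a median GC content of 76.2% there against 64% elsewhere. The part of GC content in the low values of the members was not tested.

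Most genes of the CDK and RB pathway list had low ratios. Besides kinases, cyclins and RB proteins, the list holds E2F factors, CKS1B, MDM2 and others. Of 24 listed genes of the CDK and RB pathway, none had the start in enriched segments of both replicates, where 19.5% of all genes and 12.4% of those with starts rich in CG pairs did. None was covered over 50%, where 19.2% of all measured genes were. The median log2 ratio over the span was -1.53, against -0.81 for all measured genes, and 18 of 24 starts were below 0 in both replicates, to be read against the same 67.3%. The lowest were CCND1 (cyclin D1) at -2.41 ± 0.39, CKS1B, a kinase subunit, at -2.41 ± 0.68 and MDM2 at -2.09 ± 0.21. The highest were E2F1 at 0.01 ± 0.05, E2F2 at -0.05 ± 0.25 and CCNE1 (cyclin E1) at -0.07 ± 0.24, all 3 near 0. RB1, the pocket protein through which the INK4 genes act, had 24.8% of its span enriched in replicate 1 and 22.8% in replicate 2, and its start read -2.18 in replicate 1 and -1.99 in replicate 2. CDK4 read -1.49 and 0.20, so its level was not settled, and CDK6 read -1.54 and -1.51.

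**Figure D4:**
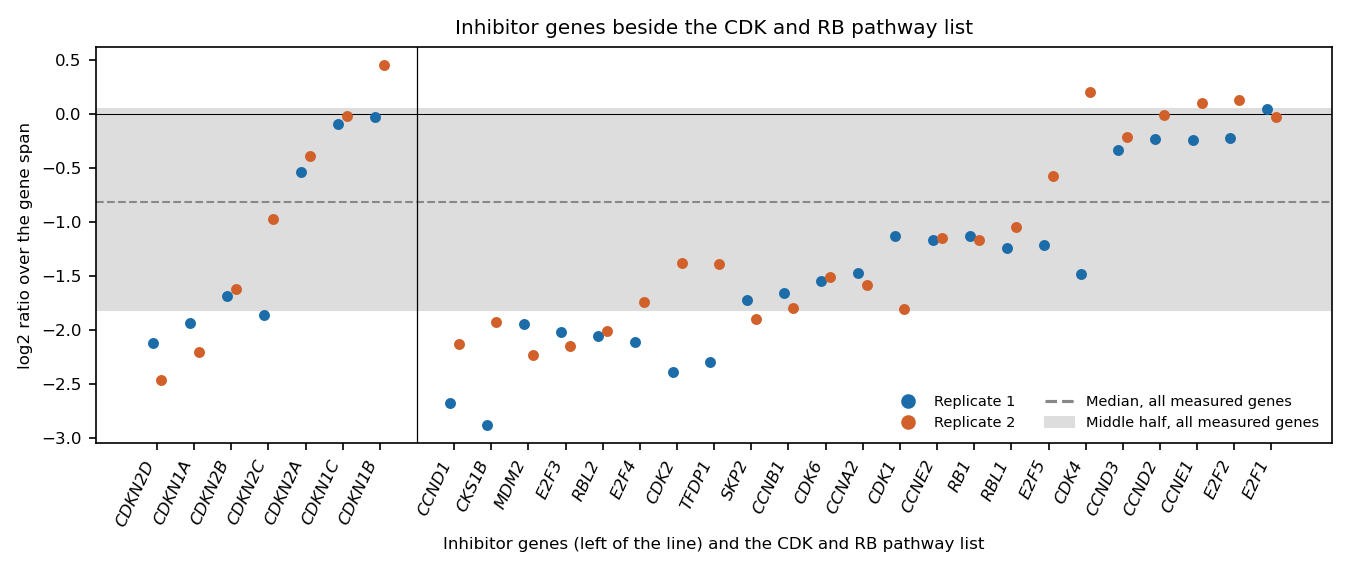
log2 ratio of ChIP over input over the gene span (vertical axis) for the inhibitor genes, left of the line, and the CDK and RB pathway list (1 of its 24 genes is not drawn), each sorted by mean. Points are the 2 replicates, the dashed line and grey band the median and interquartile range of all measured genes. The inhibitors run from -2.29 to 0.21 and the pathway list from -2.41 to 0.01.

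The genes with the profiles most like those of the members were found by the root mean square difference in 1-kb bins within 50 kb of the start, on the mean of both replicates. CDKN1A was nearest to MARCKS (0.39 log2 units over 99 bins, where the median of 19328 genes was 1.79) and PTP4A1 (0.42). CDKN2C was nearest to RPS13 (0.18) and PRR4 (0.30), and CDKN2D to ERCC2 (0.41) and DLST (0.63). CDKN1B was nearest to SHC3 (0.47) and MEX3B (0.49), and CDKN1C to SKOR1 (0.39) and SLC12A3 (0.41). CDKN2A was nearest to WDR64 (0.53) and TBC1D28 (0.54), and CDKN2B to RNF7 and the overlapping gene model ENSG00000285558 (0.43 each).

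The 2 maps differed in grain, with 46951 segments of median 27.4 kb in replicate 1 and 25583 of 53.7 kb in replicate 2, and 35.5% and 33.3% of assayed bases were enriched. Read depth is unknown, so no counting interval could be given. A histone map holds no expression values, so the cell type could not be checked by its markers. The 6 fibroblast genes looked at had 0 covered, although THY1 had 14.1% of its span enriched in replicate 1. A covered share of 0 is common, since it was the median of all measured genes, with a 75th percentile of 18.8%. CDH1 and EPCAM, of epithelial cells, had 100% covered and KRT8 24.0%. Of the leukocyte genes, PTPRC had 100% and CD3E 0.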

How the data were processed

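Each ChIP replicate has a deposited segmentation of the genome. CASAVA 1.7 and the build hg19 are named in the submitters' processing notes. How reads were aligned, how duplicates were treated and which program drew the segments is not stated in the sources used here. The authors deposited 1 log2 ratio of ChIP over input per segment, whose base was inferred from the values: 2 raised to it averaged 1.01 and 0.995 over assayed bases. The authors also deposited a −log10 p-value per segment, used only to call enrichment. Segments hold blocks, and bases in gaps between blocks count as not assayed. Genes are from GENCODE release 44 on GRCh37, the same build, and the start is that of the canonical transcript. Start values are those of the segment at the start, gaps included. Chromosome Y was not used. Values were weighted by bases with Python 3.11.15 and numpy 2.4.6. A gene was measured when 50% of its span was assayed. The covered share and the mean were tested on simulated data and matched a base-by-base count in 200 of 200 intervals.

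The members and lists were chosen with earlier results of these data known. No test was run: 1 group of 2 ChIP samples allows none, and ranks among genes are descriptions. Named genes were all members, protein-coding genes and KCNQ1 or CDKN2B antisense genes in their windows, and from the pathway list the 3 highest and 3 lowest, with others named for their role after their values were seen. Alternatives were each replicate alone, gaps filled, stricter calls, canonical transcripts, other flanks and windows. One gene of the pathway list is counted but not reported by itself here.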

Additional observations from a re-analysis of the deposited data

How the results depend on the processing

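No paired analysis was possible because the inputs have no values of their own and enter only through the ratio. The replicates are few and unequal in grain, segment values hide features shorter than a segment, and starts in gaps carry the value of their segment. Of 112 values of single members under alternatives, 17 moved by more than the SD of the replicates and 7 changed sign. The others are no measure of stability, since with 2 replicates a mean log2 ratio cannot move by more than the SD when 1 is left out. The sign changed for CDKN1B over its span (-0.031 without replicate 2 and -1.70 over the canonical transcript). Without replicate 1 the CDKN1B span kept its sign, at 0.45. The sign also changed for CDKN2A over its span (0.62 over the canonical transcript and 0.015 by the median base). Among the windows it changed for CDKN1C (0.16 with 20 kb either side) and CDKN2B (0.053 without replicate 2 and 0.12 with 100 kb either side). For the canonical transcripts the shorter span is the cause, and for the others the cause was not tested. The median over the 7 windows, -0.05, ran from -0.15 to -0.049 in single replicates and was -0.29 with 20 kb and -0.16 with 100 kb either side. Members with an enriched canonical start numbered 0 to 1 in single replicates (CDKN2A in replicate 2). Those covered over 50% numbered 1 to 2 (CDKN1B in both, CDKN2A in replicate 2). Over the canonical transcript there was 1 such member, CDKN2A, and at a covered share of 25% there was 1, CDKN1B. Pathway genes with an enriched start numbered 1 to 2 in single replicates. The count of members between enriched flanks, 3, was 1 within 25 kb, 5 within 100 kb (where 17.6% of all genes had the pattern), 1 with a log2 ratio above 0.5, 2 with a −log10 p of at least 5 and 3 to 4 in single replicates. These last settings were chosen after seeing the data.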
